A study of Mus musculus with 3 samples.

Results

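The genes described here set the balance between clotting, clot removal and complement attack at the vessel wall. Of 46 listed genes, 42 had a probe set naming that gene alone in the platform annotation, out of 19938 genes represented in this way. The listed genes F2rl1, Serpine2, C3 and C1s were not analysed here. The genes were matched by symbol. Each of the 42 had a single such probe set, so no choice between probe sets was needed.

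All samples came from adult male FVB/N mice carrying the Tg(TIE2GFP)287Sato transgene, in which the Tie2 (Tek) promoter drives green fluorescent protein. The renal medulla was dissected, dissociated with Collagenase A and sorted for fluorescent cells. Each of the 3 arrays held RNA from a pool of 2 kidneys, and all 3 form 1 group of medullary endothelial cells, numbered replicate 1, 2 and 3 in the labels. No other kidney compartment was analysed here, and levels are therefore given without a fold between groups. The Tie2 promoter is also active in some blood cells, and in sorted bulk RNA fewer cells of a type cannot be told apart from less RNA per cell. Precision is low with only 3 pools. The p-values combine the spread of a gene between these pools with the spread of other genes. For the 21 of 42 genes with the same value on all arrays, they rest on other genes alone. Only 2 different values were seen for 8 more.

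Endothelial cells line every vessel and normally keep blood fluid. Thrombin, the central clotting protease, is captured by thrombomodulin on the endothelial surface and then activates protein C, while tissue factor pathway inhibitor blocks the start of the cascade and tissue plasminogen activator starts the digestion of fibrin. Many soluble clotting and complement proteins are made by the liver and reach vessels through plasma, whereas factor VIII and von Willebrand factor are endothelial products. Complement is held off host cells by membrane regulators such as CD55, CD59 and, in rodents, Crry.

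Levels are log2 values per probe set, and a unit is the same value on the linear scale. Each gene was set against 2 limits, each tested by limma over all genes with Benjamini-Hochberg adjustment at 0.05. A limit of 100 units (log2 6.64) takes its value from the study's filter on raw levels, which asked for that level in 3 samples of a comparison, and is applied here to normalized values. The background limit of log2 7.95 (246.8 units) was the 95th percentile of 1245 probe sets for olfactory, vomeronasal and bitter taste receptors, which are mostly used in sensory cells. Of these sensory probe sets 34.8% reached 100 units on every array, so most weight is given here to the background limit. A gene under it is not shown to be silent, and levels of different genes were not ranked, since probes differ in affinity.

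The sorted cells carried endothelial transcripts on every array. All 12 pan-endothelial markers were called above the background limit, with Pecam1 at 12.53, 12.38 and 12.40 and Cdh5 at 12.92, 12.65 and 12.57. For hepatocytes, the main source of many plasma proteins named here, 3 of 10 markers were above the background limit. These were Apoa1 (8.63), Apoa2 (mean 8.48) and Hnf4a (8.42), while the defining gene Alb, at 6.67 on all arrays, and 6 others were below. Above it were also 2 of 10 myeloid markers, Cd68 (7.99) and C1qb (7.96). Their margins were only 0.05 and 0.02, with the same value on all arrays. Platelet markers above the limit were 3 of 6, Treml1 (8.75, 8.75 and 8.84), Itga2b (8.23, 8.24 and 8.24) and Gp9 (8.23). The leukocyte gene Ptprc (6.68) and the platelet genes Pf4 (6.56, 6.38 and 6.38) and Ppbp (6.96, 6.96 and 7.45) were below it. Of the other cell types, 1 of 8 pericyte and smooth muscle markers and 3 of 7 fibroblast markers were above it. So were 1 of 3 red cell markers, 3 of 5 podocyte markers and 4 of 5 antigen presentation markers. Of the podocyte markers, Podxl (11.28, 11.08 and 10.72) was far above the limit. Wt1 and Synpo passed by 0.16 and 0.37, and Nphs1 (7.69) and Ptpro (mean 7.13) were below. Tubule markers above the background limit were 2 of 7 for proximal tubule, 3 of 6 for thick ascending limb and 4 of 8 for collecting duct. The thick ascending limb count includes Bsnd, which passed by only 0.0055 with the same value on all arrays. Arrays differed in the thick ascending limb marker Umod, at 11.61, 10.40 and 9.49 on replicates 1, 2 and 3, and in the antigen presentation gene Cd74, at 9.27, 10.93 and 9.53. The array medians over all probe sets lay between 8.003 and 8.03.

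The 42 genes divided about evenly between levels above and below the background limit. By limma 19 of the 42 genes (45.2%) were above it, 21 were below and 2 could not be told from it, against 52.4% of all genes above and 41.5% below. At 100 units 38 were above and 2 below, against 84.5% and 13.7% of all genes. The shares were thus near those of all genes. Counted without a test, 39 of the 42 reached 100 units on all arrays and 19 reached the background limit on all arrays, against 85.4% and 54.8% of all genes. Between the limits, above 100 units and below background, lay 18 of the 42 (42.9%), against 26.5% of all genes. By role, 6 of 8 anticoagulants and 5 of 7 fibrinolysis genes were above the background limit, against 3 of 10 coagulation factors, 2 of 6 complement components and 1 of 6 complement regulators. These counts were not tested against each other. Of the 42 genes, 21 (50%) had the same value on all arrays, and this was so for 46.3% of all genes. For such genes the spread in the test comes wholly from the other genes, so the size of their p-values in the main setting is not given. Those printed below come from alternatives under which a call was lost.

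**Figure D1:**
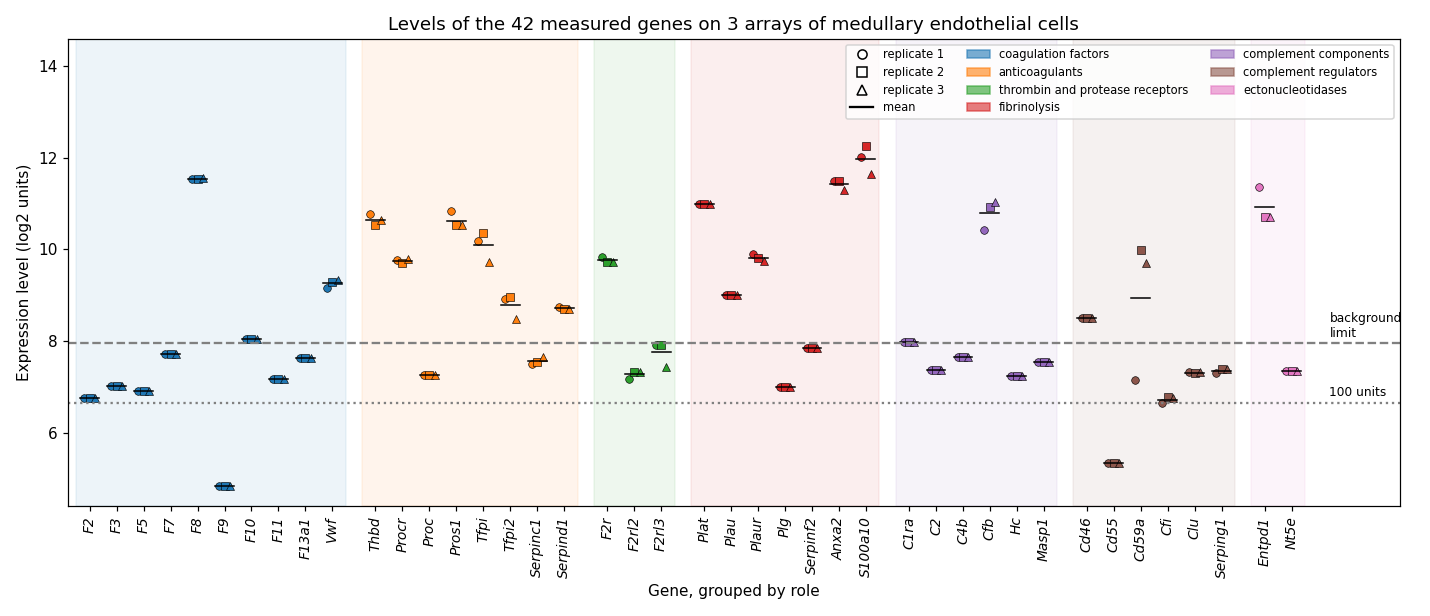
Expression level (y axis, log2 units) of the 42 measured genes (x axis, grouped by role) in medullary endothelial cells, with 1 marker per array, a bar for the mean and lines at 100 units (6.64) and at the background limit (7.95). F8, S100a10, Anxa2 and Plat sit well above the background limit on every array, Cd55 and F9 sit below 100 units, and Cd59a is low on replicate 1 and above the background limit on the other arrays.

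Among the coagulation factors, factor VIII and von Willebrand factor stood well above background. F8, the cofactor whose loss causes haemophilia A, had levels of 11.54, 11.54 and 11.56 (mean 11.55 ± 0.01, SD, n = 3), or 2995 units. It was 3.60 above the background limit (adjusted p = 7.66e-07, limma). Replicates 1 and 2 had the same value, so the range of 0.01 is no measure of agreement between the pools. With the prior variance from genes with 3 different values, the adjusted p for F8 was larger, at 2.81e-05 (limma). Vwf, the multimer that tethers platelets to the injured wall and carries factor VIII in plasma, was at 9.15, 9.30 and 9.33 (mean 9.26 ± 0.09), 1.31 above the limit (adjusted p = 0.0011, limma). Replicate 1 was the lowest, and all arrays stayed clear of the limit.

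The other coagulation factors among the 42 genes stood near or below background. F10, which cleaves prothrombin, was called above the limit at 8.05 on all arrays, a margin of only 0.10. This call did not hold when the prior variance came from genes with 3 different values (adjusted p = 0.187, limma). F7, the ligand of tissue factor, was at 7.72, and F13a1, the subunit that cross-links fibrin and is also known from macrophages and platelets, was at 7.64. Both were called below, as were F11 at 7.17, F5 (the cofactor of factor X) at 6.92 and F2 (prothrombin) at 6.75, each with the same value on all arrays. F2 was 0.11 over 100 units, and that call did not hold with the prior variance from genes with 3 different values (adjusted p = 0.148, limma). F3, tissue factor, which starts clotting and is kept off the luminal surface of resting endothelium, had 7.01 on all arrays and was also below. F9, the haemophilia B gene, was at 4.83 (28.4 units) and below 100 units as well. F7 and F10 are direct neighbours on chromosome 8 in the GRCm38.p6 annotation and lay on either side of the limit, 0.22 under and 0.10 over it.

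The anticoagulant genes of the endothelial surface were expressed well above background on all arrays. Thbd, thrombomodulin, was at 10.77, 10.53 and 10.65 (mean 10.65 ± 0.12, SD, n = 3), or 1607 units and 2.70 above the limit (adjusted p = 0.000437, limma). Procr, the receptor that presents protein C to this complex, was at 9.78, 9.71 and 9.79 (mean 9.76 ± 0.04) and 1.81 above (adjusted p = 0.00012, limma). The 3 arrays lay within 0.25 of each other for Thbd and within 0.08 for Procr. The zymogen itself, Proc, is known from liver and was at 7.25 on all arrays, below the limit. Its cofactor protein S, Pros1, was at 10.83 on replicate 1 and 10.53 on both others (mean 10.63 ± 0.17), 2.68 above the limit (adjusted p = 0.000904, limma). Receptor, thrombin-binding partner and cofactor of the protein C system thus lay above the limit and the zymogen below it.

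The inhibitors of the tissue factor pathway were above the limit but spread more between arrays. Tfpi, which blocks factor Xa and the factor VIIa complex, was at 10.19, 10.36 and 9.72 (mean 10.09 ± 0.33, SD, n = 3, adjusted p = 0.00531, limma). Tfpi2, a related inhibitor of plasmin and other proteases in the matrix, was at 8.92, 8.95 and 8.48 (mean 8.78 ± 0.27, adjusted p = 0.0235, limma). For both, replicate 3 was the lowest and the other arrays lay close together. Neither call held on 2 arrays without replicate 1 (adjusted p = 0.0941 for Tfpi and 0.184 for Tfpi2, limma) or without replicate 2 (0.0749 and 0.177). Of the serpins, Serpind1, heparin cofactor II, was at 8.75, 8.70 and 8.70, which is 0.77 above the limit (adjusted p = 0.000236, limma). Serpinc1, antithrombin, a liver product that works on endothelial heparan sulfate, was at 7.497, 7.53 and 7.65 and below it (adjusted p = 0.0104, limma), a call lost without replicate 1 (adjusted p = 0.104) and without replicate 2 (0.132). Over 100 units, the calls lost were those of Tfpi (0.0549) and Tfpi2 (0.0664) without replicate 1 and of Tfpi2 (0.0635) and Serpinc1 (0.0503) without replicate 2.

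**Figure D2:**
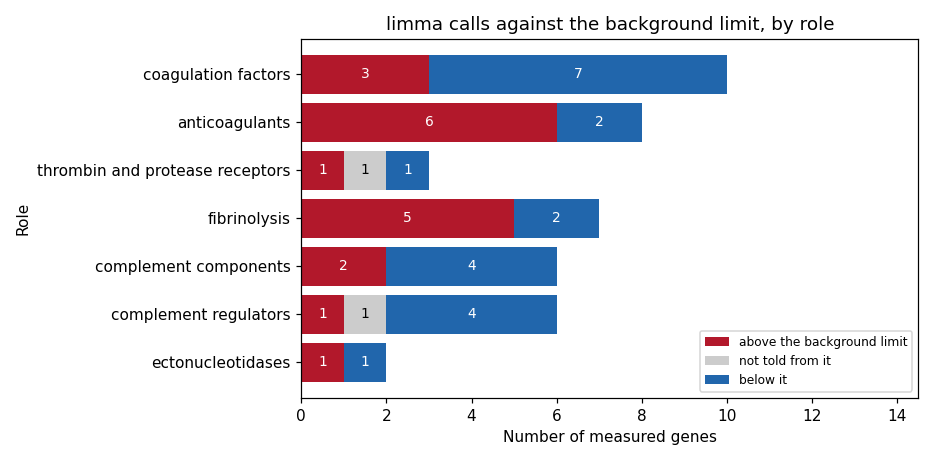
Number of measured genes (x axis) in each role (y axis) that limma called above the background limit, could not tell from it, or called below it. Anticoagulants (6 of 8) and fibrinolysis genes (5 of 7) have most of their members above the limit, and coagulation factors (7 of 10) have most of theirs below it.

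Of the protease-activated receptors, through which thrombin signals to cells, F2r stood above background. F2r, PAR1, had levels of 9.84, 9.72 and 9.72 (mean 9.76 ± 0.07, SD, n = 3), 1.81 above the limit (adjusted p = 0.000303, limma). F2rl2, PAR3, which in mouse platelets serves as a cofactor for PAR4, was at 7.16, 7.33 and 7.33 and below the limit (adjusted p = 0.00458, limma). That call did not hold without replicate 2 (adjusted p = 0.0765) or without replicate 3 (0.0757). F2rl3, PAR4, was at 7.90, 7.92 and 7.43 and could not be told from the limit (adjusted p = 0.321, limma), with replicate 3 the lowest. Over 100 units its call was lost without replicate 1 (adjusted p = 0.138) and without replicate 2 (0.135), and that of F2rl2 without replicate 2 (0.0811) and without replicate 3 (0.081).

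F2r and F2rl2 lie near each other on chromosome 13 with 1 protein-coding gene, Iqgap2, between them, and they fell on opposite sides of the background limit. The 250 bases before the RefSeq start of each (build GRCm38.p6, 5′ to 3′) are shown because of this contrast, with those of the neighbouring F10 and F7. Capitals mark CACCC on either strand (GGGTG where it lies on the other strand), the core letters bound by Krüppel-like factors, a family known for anticoagulant gene control in endothelium.
F2r (chr13:95618467-95618716, minus strand): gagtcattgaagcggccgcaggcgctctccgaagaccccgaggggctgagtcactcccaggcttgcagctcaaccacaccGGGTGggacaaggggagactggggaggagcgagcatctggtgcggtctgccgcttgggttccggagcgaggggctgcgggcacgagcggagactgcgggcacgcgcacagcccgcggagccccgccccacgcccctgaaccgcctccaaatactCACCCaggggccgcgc
F2rl2 (chr13:95696670-95696919, plus strand): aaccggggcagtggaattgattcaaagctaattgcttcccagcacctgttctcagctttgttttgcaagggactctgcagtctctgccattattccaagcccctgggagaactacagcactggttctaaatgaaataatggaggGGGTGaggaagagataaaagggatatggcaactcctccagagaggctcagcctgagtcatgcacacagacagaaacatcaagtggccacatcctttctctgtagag
F10 (chr8:13037058-13037307, plus strand): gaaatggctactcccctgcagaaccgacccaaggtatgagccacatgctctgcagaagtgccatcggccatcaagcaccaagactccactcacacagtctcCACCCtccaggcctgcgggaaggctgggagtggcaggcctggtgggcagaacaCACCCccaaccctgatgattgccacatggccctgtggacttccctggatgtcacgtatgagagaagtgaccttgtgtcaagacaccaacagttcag
F7 (chr8:13025784-13026033, plus strand): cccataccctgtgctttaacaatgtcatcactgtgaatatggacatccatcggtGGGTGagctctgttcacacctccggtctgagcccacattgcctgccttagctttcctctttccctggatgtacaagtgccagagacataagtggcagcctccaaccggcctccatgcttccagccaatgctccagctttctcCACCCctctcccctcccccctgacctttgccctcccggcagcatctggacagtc
F2r held 2 such matches, at 170 to 166 and at 16 to 12 bases before the start, and F2rl2 held 1. F10 and F7 held 2 each. With the background limit at the 90th or the 99th percentile, F10 and F7 fell on the same side of it. The number of matches was not tested against the levels. Promoter windows were matched for 28 of the 42 measured genes, 33 windows in all. CACCC was present in 69.7% of them and in 52% of all 32851 windows of the same length. The ETS letters TTCCTG, on either strand, were in 30.3% of the windows of these genes and in 25.7% of all windows. Of the other letter patterns searched, those for hypoxia (12.1% against 16.6%) and NF-kB (0% against 1.41%) were rarer in these windows than in all windows. The rest were more frequent, among them SOX at 6.06% against 3.02%. Some genes have several windows, and none of these shares was tested. These matches are descriptions of letters and were not tested as binding sites.

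The activators of plasminogen and their surface receptors were above background, and plasminogen itself was not. Plat, tissue plasminogen activator, had a level of 10.997 (2044 units) on all arrays, 3.05 above the limit. Plau, urokinase, was at 9.02 on all arrays and 1.07 above. Its receptor Plaur was at 9.90, 9.81 and 9.74 (mean 9.82 ± 0.08, SD, n = 3), 1.87 above (adjusted p = 0.000398, limma). These genes encode the enzymes that turn plasminogen into plasmin and the receptor that holds urokinase at the cell surface.

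The annexin A2 complex, which gathers plasminogen and tissue plasminogen activator on endothelial cells, was above the limit with both of its genes. Anxa2 was at 11.49, 11.49 and 11.31 (mean 11.43 ± 0.11, adjusted p = 0.000191, limma). Its light chain S100a10 was at 12.02, 12.26 and 11.65 (mean 11.98 ± 0.31, SD, n = 3), 4.03 above the limit (adjusted p = 0.00124, limma). For both partners replicate 3 was the lowest, differing from the mean of the others by -0.18 for Anxa2 and -0.49 for S100a10. Plg, plasminogen, a liver product, was at 6.997 on all arrays and below the limit, as was Serpinf2, the plasmin inhibitor, at 7.84. The margin of Serpinf2 was 0.10, and its call did not hold with the prior variance from genes with 3 different values (adjusted p = 0.166, limma).

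Among the complement components, factor B stood far above the limit. Cfb, the serine protease of the alternative pathway, had levels of 10.42, 10.92 and 11.04 (mean 10.79 ± 0.33, SD, n = 3), or 1775 units and 2.85 above (adjusted p = 0.00295, limma). Replicate 1 was the lowest, at -0.56 from the mean of the others, and on 2 arrays the call did not hold without replicate 2 (adjusted p = 0.0714) or without replicate 3 (0.0597). C2, the homologous protease of the classical and lectin pathways and the direct neighbour of Cfb on chromosome 17, was at 7.36 on all arrays and below the limit. C4b, further along the same stretch with 5 genes between, was at 7.64 and also below. C4b has a near-identical copy, C4a, and the array may not separate the pair. The other components were the lectin pathway protease Masp1 at 7.53 and the C5 gene Hc at 7.25, both below with the same value on all arrays. C1ra, the first protease of the C1 complex, was at 7.98 on all arrays and only 0.03 above the limit. Its call was lost with array medians aligned (adjusted p = 0.0632), with quantile normalization (0.0601) and with the prior variance from genes with 3 different values (0.633, limma), and it turned to 0.02 below when olfactory receptors set the limit. A further probe set shared by C1ra and its copy C1rb read 6.77, 6.77 and 6.82.

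The membrane regulators of complement differed from gene to gene and, for Cd59a, from array to array. Cd59a, which blocks the assembly of the membrane attack complex, had levels of 7.15 on replicate 1, 9.98 on replicate 2 and 9.71 on replicate 3 (mean 8.95 ± 1.56, SD, n = 3). Replicate 1 was thus below the background limit and the others well above it. The range of 2.83 was the widest of the 42 genes, and 6 of the 19938 genes (0.0301%), Cd59a included, had a range at least as wide. It could not be told from the background limit (adjusted p = 0.356, limma) or from 100 units (adjusted p = 0.101, limma). On the 2 arrays without replicate 1 it was 1.90 above the background limit (adjusted p = 0.0458) and 3.20 above 100 units (adjusted p = 0.0259). Over 100 units it was also called with array medians aligned (adjusted p = 0.047), with quantile normalization (0.0483) and with the prior variance from genes with 3 different values (0.0264). Its close copy Cd59b, chosen after its values were seen, was at 6.17, 7.06 and 6.39, again lowest on replicate 1 but below the background limit on every array. Replicate 1 was also the array with the highest Umod, Pecam1 and Cdh5. Other markers of the same lists went another way. Erg (11.33, 11.51 and 11.49) and Cldn16 (7.07, 7.34 and 7.34) were lowest on replicate 1, and Emcn (13.21, 13.24 and 13.21) was highest on replicate 2. The antigen presentation genes Cd74 (9.27, 10.93 and 9.53) and H2-Aa (10.49, 11.45 and 10.75) had the same order of arrays as Cd59a, lowest on replicate 1 and highest on replicate 2, as did Ciita (7.87, 8.06 and 7.996), while H2-Ab1 was lowest and H2-Eb1 highest on replicate 3. The part of any of these in the levels of Cd59a was not tested. The bases before the RefSeq start of Cd59a are shown because no other gene here differed as much between arrays, with CACCC on either strand in capitals as above.
Cd59a (chr2:104095551-104095800, plus strand): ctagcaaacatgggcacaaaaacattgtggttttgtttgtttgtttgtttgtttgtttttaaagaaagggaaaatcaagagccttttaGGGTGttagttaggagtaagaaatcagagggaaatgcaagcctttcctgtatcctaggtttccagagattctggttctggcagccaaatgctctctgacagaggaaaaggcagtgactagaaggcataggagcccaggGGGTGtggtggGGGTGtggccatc
This window held 3 such matches, of which 2 lie within the last 24 bases before the start.

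The remaining complement regulators were mostly below background. Cd46, a C3b cofactor known in mouse chiefly from testis, was above it at 8.51 on all arrays. Cd55, decay accelerating factor, which dismantles the enzymes that activate C3, was at 5.33 (40.2 units) on all arrays, 1.31 below 100 units. Serping1, the C1 inhibitor, was at 7.30, 7.38 and 7.38 (adjusted p = 0.00139 below the limit, limma), and Clu, clusterin, which binds terminal complement complexes, was at 7.31, 7.30 and 7.31. Cfi, factor I, the liver protease that cleaves C3b, was at 6.64, 6.77 and 6.75, below background and not told from 100 units (adjusted p = 0.171, limma). Cr1l, the rodent regulator Crry that acts on C3 and is not among the 42 genes, stood at 10.59, 10.67 and 10.20, above the limit on every array.

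The ectonucleotidases, which break down the platelet activators ATP and ADP and then make adenosine, fell on opposite sides of the limit. Entpd1, CD39, was at 11.37 on replicate 1 and 10.72 on both others (mean 10.94 ± 0.38, SD, n = 3), 2.99 above (adjusted p = 0.00348, limma). All arrays lay far above the limit, but with 2 arrays the call did not hold without replicate 2 (adjusted p = 0.0677) or without replicate 3 (0.0672). Nt5e, CD73, which turns AMP into adenosine, was at 7.35 on all arrays and below.

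Differences between arrays could be described for only part of these genes, since 21 of the 42 had the same value on all arrays and 8 more took 2 different values. Equal values are no measure of agreement between the pools, and their cause was not tested. A range of at least 0.5 was seen in 5 of the 42 genes (Cd59a, Entpd1, Tfpi, Cfb and S100a10), against 7.44% of all genes, and a range of at least 1 in Cd59a alone, against 1.58% of all genes. Replicate 3 was the single lowest array for 6 genes, Tfpi, Tfpi2, F2rl3, S100a10, Anxa2 and Plaur, or 14.3% against 11.4% of all genes. Replicate 1 was the single lowest for 7 genes (16.7% against 15.2% of all genes), among them Cd59a, Cfb and Vwf. For pan-endothelial markers the median difference of an array from the mean of the others was 0.17, -0.09 and -0.04 on replicates 1, 2 and 3. It was 0.30, -0.08 and -0.15 for thick ascending limb markers and -0.33, 0.83 and -0.22 for antigen presentation markers. Their part in the differences above was not tested.

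**Figure D3:**
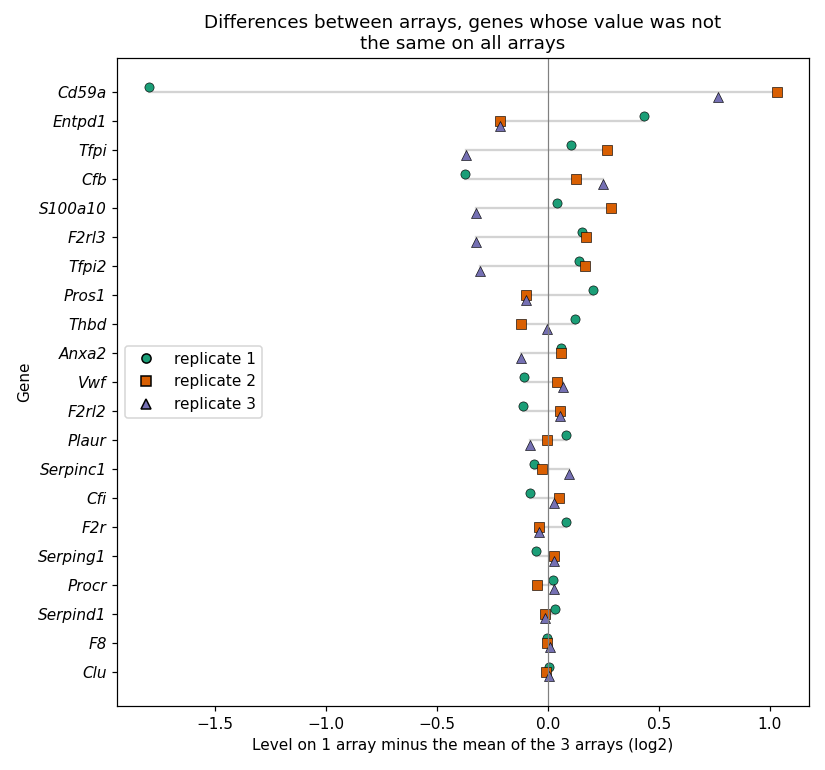
Level on each array minus the mean of the 3 arrays (x axis, log2) for the 21 genes (y axis, by range) whose value was not the same on all arrays, with 1 marker per replicate. Cd59a spans 2.83 with replicate 1 far to the left, Entpd1 is high on replicate 1, and Tfpi, Tfpi2, F2rl3 and S100a10 are low on replicate 3.

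Further genes of these pathways, not among the 42, fell on both sides of the background limit. Of 11 measured clotting and fibrinogen genes 5 were above the background limit and 6 below. Below it were the fibrinogen chains Fga (7.48) and Fgb (6.90) and F13b (5.49), each with the same value on all arrays, and above it F12 (8.12), Ggcx, the carboxylase that vitamin K dependent factors need (8.90), and Vkorc1, which recycles the vitamin (9.34, 9.48 and 9.34). Of 7 further anticoagulant and fibrinolysis genes 4 were above and 2 below, with Serpina10 (7.99, 8.07 and 8.07) not told from the limit, Proz at 7.99 above, and Serpinb2 (6.91, 6.95 and 6.95) and Serpina5 (6.74) below. Of 14 further complement components 4 were above and 8 below. C1qb (7.96), Mbl2 (7.98) and C1rl (8.10, 8.14 and 8.14) passed narrowly and Cfp, properdin, which stabilises the alternative pathway enzyme, passed by 0.85 (8.80 on all arrays), while C1qa (7.91) and C1qc (7.42, 7.44 and 7.42) did not.

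Of 13 further complement receptors and regulators 3 were above and 10 below. The 3 were Crry, described above, Cd93, an endothelial surface lectin (12.67, 12.52 and 12.40), and the mitochondrial protein gene C1qbp (10.11 on all arrays). The receptor genes Cr2 (7.64, 7.80 and 7.69), C3ar1 (7.08) and C5ar1 (7.05), known from leukocytes, were below. Of 8 platelet adhesion genes and vascular platelet inhibitors 6 were above. These were Gp9 (8.23), Itga2b (8.23, 8.24 and 8.24), Itgb3 (8.67), P2ry1 (7.99) and the vascular genes Ptgis (8.51) and Nos3 (9.02). Gp5 (7.86, 7.96 and 7.86) was not told from the limit and P2ry12 (6.85, 6.92 and 6.92) was below. Itga2b and Gp9 are also among the 3 of 6 platelet markers above the limit, and the part of platelet RNA in these levels was not tested.

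**Figure D4:**
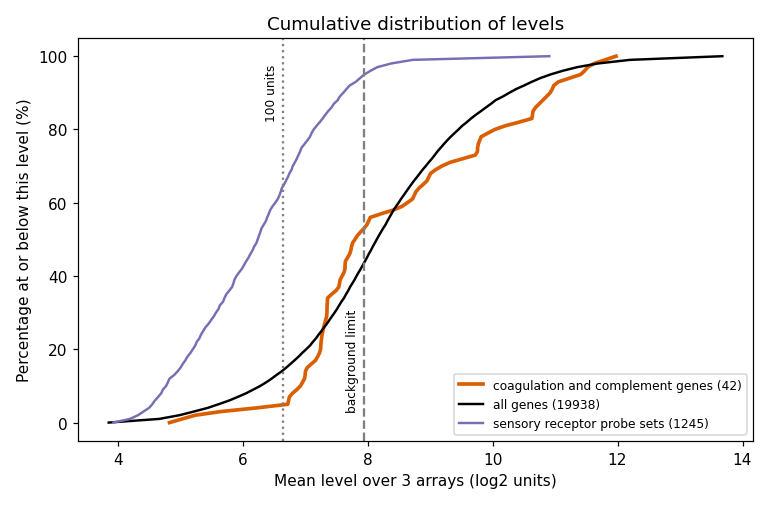
Percentage of genes or probe sets (y axis) at or below a mean level over 3 arrays (x axis, log2 units) for the 42 genes, all 19938 genes and 1245 sensory receptor probe sets, with lines at 100 units and at the background limit. The curve of the 42 genes climbs steeply between the limits, where 18 of them (42.9%) were called, against 26.5% of all genes, and their median of 7.80 is below the 8.15 of all genes.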

How the data were processed

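Gene expression was measured on Affymetrix Mouse Gene 1.0 ST arrays after 1 round of amplification. The deposited values are log2 levels per probe set. The study reports RMA (background correction, a common distribution and median polish) in GeneSpring for its own analysis, while the labels name Affymetrix Expression Console. Which program made the deposited values was not settled here. A log2 scale was read from their range, 3.55 to 14.4. The platform annotation gave 1 gene to 21789 of 35557 probe sets, several to 1621 and none to 12147. For each of 19938 genes, the probe set naming it alone was used, and the one of highest mean where there were several. Scan dates and probe-level files were not used here.

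The level minus each limit was tested against 0 in an intercept model of limma (lmFit and eBayes, two-sided). Alternatives changed the limits, the probe set rule, the normalization, the prior variance, the features in the fit, the names and the arrays used. This step was also run on simulated data, whose spreads were drawn only from genes with 3 different values. That run cannot speak for genes with the same value on all arrays. Promoters came from RefSeq tables of build GRCm38.p6, of which the 250 bases before the start were used. The genes and lists were chosen with earlier results of these data known. Every measured member is named, with the first 4 measured genes of each further list and up to 3 on the other side of the background limit from most of their list. From the further lists, Cfp, Cd59b, P2ry1, Ptgis and Nos3 are named beyond this rule, after their values were seen. R 4.3.3 with limma 3.58.1 and Python 3.11.15 with pandas 2.3.3 and matplotlib 3.10.9 were used.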

Additional observations from a re-analysis of the deposited data

How the results depend on the processing

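Of 1218 calls on single genes under the alternatives, 1155 kept their direction and side of the threshold, 29 lost the call, 7 gained it and 27 changed sign. With a limit of 200 units in place of 100, 21 genes were above and 18 below. At that limit 17 genes lay on the other side, Serpinc1 without passing the threshold (adjusted p = 0.196, limma), with distances from the limit of -0.89 for F2, -0.64 for F3, -0.73 for F5, -0.47 for F11, -0.0068 for F13a1, -0.39 for Proc, -0.083 for Serpinc1, -0.37 for F2rl2, -0.65 for Plg, -0.28 for C2, -0.0033 for C4b, -0.40 for Hc, -0.11 for Masp1, -0.92 for Cfi, -0.33 for Clu, -0.29 for Serping1 and -0.30 for Nt5e. With the background limit at the 90th percentile, F7 (0.11), F13a1 (0.027), F2rl3 (0.14), Serpinf2 (0.23) and C4b (0.031) changed sign, and at the 99th percentile F10 (-0.68), Serpind1 (-0.0052), C1ra (-0.74) and Cd46 (-0.21). With olfactory receptors alone setting it, C1ra was at -0.019. These follow from moving the limit. The number not told from 100 units, 2 in the main setting, was 1 with a limit of 50 units, with array medians aligned and with quantile normalization. The number not told from the background limit, also 2, was 5 with the prior variance from genes with 3 different values.

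Without 1 replicate, 34 to 37 genes were above 100 units, 2 below and 3 to 6 not told from it, and 15 to 18 were above the background limit, 19 to 20 below and 4 to 8 not told. On all remaining arrays 39 to 40 passed 100 units and 19 to 20 the background limit. Fewer arrays give fewer degrees of freedom, and no call changed sign. No paired analysis was possible because all samples form 1 group. Signal over background limits what can be said of the 18 genes between the limits.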
